A study of Mus musculus with 8 samples.

Results

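The 9 genes described here encode the mouse lipoxygenases *Alox5*, *Alox12*, *Alox12b*, *Alox12e*, *Alox15* and *Alox8*, the 5-lipoxygenase activating protein (*Alox5ap*, also called FLAP), leukotriene A4 hydrolase (*Lta4h*) and leukotriene C4 synthase (*Ltc4s*). They were found on the array by gene name, which gave 14 of its 41174 non-control probes. At least 1 probe of each of the 9 genes, and 12 of the 14 probes, passed the filter on dim signals, out of 16558 named genes with such a probe. Liver was taken from 8 wild-type male C57BL/6 mice, 14 to 17 weeks old by the sample labels, after 4 weeks on either the standard chow (STD) diet or the atherogenic (ATH) diet, with 4 mice per diet and 1 array per mouse. The Methods call the strain C57BL/6J and give a wider age range over all experiments. The ATH diet was high in fat and cholesterol and also contained cholic acid, a bile acid, so the effects of its components cannot be told apart. The comparison of these livers asks how a fatty, inflamed liver expresses the genes that turn arachidonic acid into signalling lipids.

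Lipoxygenases add oxygen to polyunsaturated fatty acids such as arachidonic acid at a defined carbon, which gives each enzyme its number. In the leukotriene branch, FLAP at the nuclear membrane presents arachidonic acid to 5-lipoxygenase, which makes leukotriene A4, and *Lta4h* and *Ltc4s* then turn that intermediate into leukotriene B4, an attractant of leukocytes, or leukotriene C4, the first of the cysteinyl leukotrienes. This branch is known mainly from myeloid cells, including the macrophages of the liver, whereas the 12-lipoxygenases are known from platelets and epidermis and *Alox15* from macrophages and eosinophils.

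In short, *Alox5ap* was 3.49-fold higher on the ATH diet, and it was the only member called higher. The *Alox5ap* call held in 3 of the 8 fits with 1 array left out. It was lost at a false discovery rate of 1% and by the methods' t-test, which lets the spread differ between diets. *Alox12b* was the only member called lower, by 0.53 on the log2 scale. That call was lost when the arrays were not scaled. It was also lost when replicate numbers were fitted as a block, where *Alox5ap* alone stayed called. The other 7 members, *Alox5* itself among them, did not pass a false discovery rate of 5% by limma. Calls on the ATH diet were therefore made for 2 of the 9 members, against 9.35% of all genes tested, and 4 of the 9 had an unadjusted p under 0.05, against 30.6% of all genes.

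Every value rests on a 60-base oligonucleotide on the array. A few of these probes are printed because the results turn on them, in lower case, 5′ to 3′, with coordinates in the mm7 mouse build that the array design uses. The array files give positions only, so exon or untranslated region was not assigned from an annotation of that build. The probe of *Alox5ap*, the member with the largest difference, lies on the plus strand at chr5:148181223-148181282 and is shown by its first 30 bases. The *Lta4h* probe, whose gene lies downstream of FLAP in the same branch, maps to the plus strand at chr10:93033464-93033861, a span of 398 bases. Both *Alox12b* probes are shown because one carries the only call of a lower member and the other gave no signal above background. They lie on the plus strand at chr11:69247608-69247842, a span of 235 bases, and at chr11:69251176-69251235.
Alox5ap, A_51_P235687, first 30 bases: agagacgcatcataacgcaatgccgcgaag
Lta4h, A_51_P101955: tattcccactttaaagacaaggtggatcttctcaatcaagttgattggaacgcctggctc
Alox12b, A_51_P447258: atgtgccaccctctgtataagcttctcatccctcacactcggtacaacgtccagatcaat
Alox12b, A_52_P316765: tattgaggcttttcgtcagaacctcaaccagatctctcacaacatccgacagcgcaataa

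The probes of *Lta4h*, *Alox12b* (A_51_P447258) and *Alox15* each spanned more genomic bases than their own length, so these 3 probes match spliced sequence over an exon junction. Of the 3 *Alox5* probes, on the minus strand of chromosome 6, the pair at chr6:116435981-116436040 and chr6:116436021-116436080 overlap by 20 bases and are not independent measurements. The run they share is printed because they nevertheless gave unlike values; its capitals mark the bases held by both probes.
Alox5, A_51_P247249 and A_52_P214126, shared run: TTTATGCTTCCTCCAATTGC
Between probes of different members, the longest run in common was 8 bases over 84 pairs. In the RefSeq gene table of assembly GRCm38.p6, 6 of the 9 members lie on chromosome 11. *Alox12*, *Alox12e* and *Alox15* follow each other there as neighbouring coding genes, and *Alox12b* and *Alox8* stand side by side next to *Aloxe3*, a further epidermal lipoxygenase.

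The signal was read in a single color, so each value is the log2 of the processed signal after subtraction of its array's 75th percentile, called the scaled log2 signal. A value of 0 is the 75th percentile, and levels are not comparable between probes. A probe was counted as detected if it was well above background on at least 3 of the 4 arrays of a diet. Between 72.3% and 77.3% of the spots of an STD array, and between 72.9% and 77.8% of an ATH array, were well above background. Before scaling, the 75th percentile was higher by 0.45 on the log2 scale on the ATH arrays and the spike-in controls by 0.14, and after scaling the median of all detected probes was -0.15. Each diet had its own slide, and an effect of the slide cannot be told apart from one of the diet. Of 19 hepatocyte markers, 18 were detected. Their log2 differences were below 0 for 16, with a median of -0.32, and 9 were lower without overlap, beside the rise of *Alox5ap*. Over all genes, 65.1% were below 0, 14.6% were lower without overlap and 5.3% were called lower. *Tat* (-1.05), *Ass1* (-0.70) and *Hpd* (-0.61) were called lower (limma), but the median depended on the scaling (-0.25 with median scaling, -0.012 with spike-in scaling, 0.045 with quantile normalization and 0.12 on unscaled signals), and *Tat* alone of the 3 was called under each of these. The part of hepatocytes in the members' results was not tested. P-values measure the spread between the 4 mice of a diet, and the number of arrays limits the precision.

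**Figure D1:**
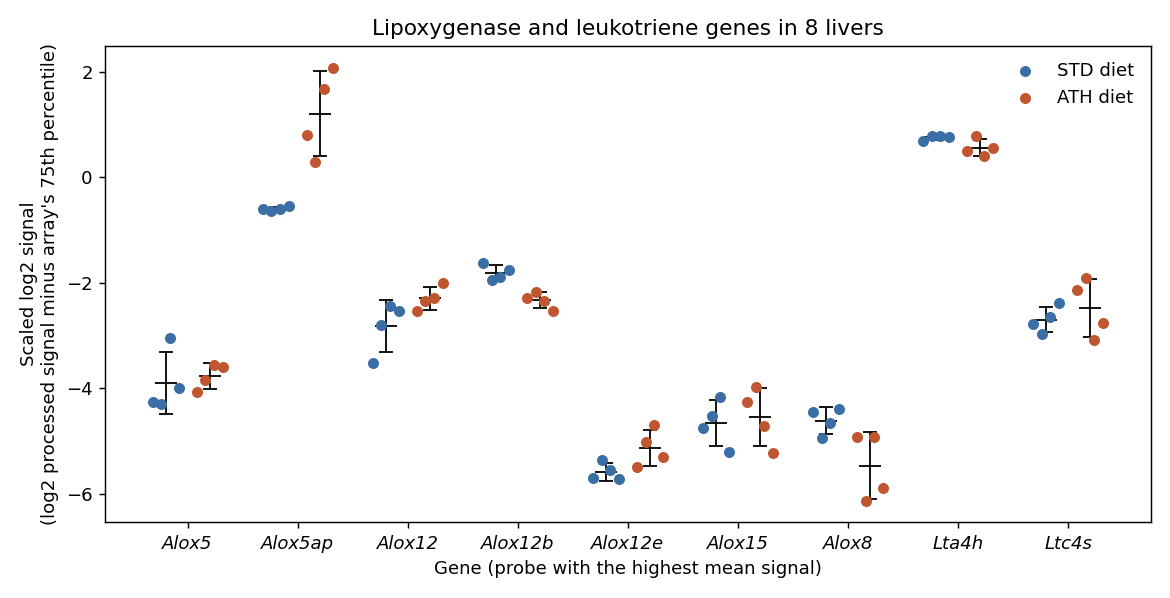
Scaled log2 signal (relative to the array's 75th percentile, vertical axis) of each member gene by the probe with the highest mean signal, with 1 point per liver, STD in blue and ATH in orange; bars show mean and SD (n = 4). The *Alox5ap* points of the ATH diet sit between 0.29 and 2.08, all above the STD points, the *Alox12b* points of the ATH diet sit below the STD points, and the points of the other 7 genes overlap.

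*Alox5ap* encodes the membrane protein without which 5-lipoxygenase makes few leukotrienes in intact cells. Its scaled log2 signal was -0.60, -0.64, -0.61 and -0.54 in the 4 STD livers and 0.79, 0.29, 1.67 and 2.08 in the 4 ATH livers, replicates 1 to 4 in both. The diets did not overlap, the STD livers were nearly alike (SD 0.039), and the ATH livers were spread widely (SD 0.81), with replicates 3 and 4 high and replicate 2 lowest. The difference was 1.80 on the log2 scale (SE 0.35, 95% interval 1.01 to 2.59), and it passed the false discovery rate of 5% (limma, Benjamini-Hochberg over all detected probes, adjusted p = 0.0245). That SE and interval take 1 spread for both diets. The methods' t-test, which lets the spread differ between diets, gave an SE of 0.41 and did not pass (adjusted p = 0.167). Before scaling, the processed signal ran from 303 to 314 in STD livers and from 675 to 2965 in ATH livers.

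Among all genes tested, 4.05% were called higher and 7.59% were higher without overlap between the diets. *Alox5ap* was the only member in either count, and its difference stood at 1.95 on the log2 scale relative to the median of all detected probes. It was called under all 5 scalings and with normexp background correction, with differences from 1.66 to 2.25. The call was lost without STD replicate 1, 2, 3 or 4 (limma adjusted p = 0.0707, 0.0549, 0.0665 and 0.0626), at differences from 1.79 to 1.82. Over all probes, the calls then fell from 2483 to between 394 and 1021. The *Alox5ap* call was also lost without ATH replicate 3 (limma adjusted p = 0.0649) and by the methods' t-test. Its difference stayed between 1.51 and 2.11 whichever array was left out.

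*Alox5* encodes 5-lipoxygenase, the enzyme that FLAP serves. On its brightest probe, A_52_P214126, the scaled log2 signal was -4.27, -4.30, -3.05 and -4.00 in STD livers and -4.08, -3.85, -3.56 and -3.60 in ATH livers. STD replicate 3 was the highest of the 8, and the ATH livers lay within the STD range. The log2 difference was 0.13 (SE 0.28, 95% interval -0.50 to 0.76, limma adjusted p = 0.782), and 0.42 without STD replicate 3. A second probe, A_52_P214134, differed by 0.023 on the log2 scale (95% interval -0.57 to 0.62, limma adjusted p = 0.965).

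The third *Alox5* probe, A_51_P247249, which shares the printed run with the brightest, gave scaled log2 values of -5.92, -7.19, -3.70 and -5.45 in STD livers and -5.25, -4.74, -3.84 and -4.02 in ATH livers. It was well above background in 1 STD liver and 4 ATH livers. STD replicate 3 was again the highest of all, and the diets overlapped. Its difference of 1.10 on the log2 scale (SE 0.66) did not pass (limma adjusted p = 0.298), and with normexp background correction it was -0.031.

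*Lta4h*, the zinc hydrolase that makes leukotriene B4, had scaled log2 values of 0.68, 0.79, 0.78 and 0.76 in STD livers and 0.49, 0.77, 0.39 and 0.56 in ATH livers. Values in 3 of the 4 ATH livers lay below all STD values, and ATH replicate 2 lay within them. The log2 difference was -0.20 (SE 0.12, 95% interval -0.47 to 0.077, limma adjusted p = 0.31), which is -0.048 relative to the median of all detected probes. Its sign depended on the scaling, since the value became 0.25 on unscaled signals and 0.11 when spike-in probes set the scale.

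*Ltc4s* joins leukotriene A4 to glutathione. Its probe, at chr11:50193777-50193836, gave scaled log2 values of -2.79, -2.97, -2.66 and -2.40 in STD livers and -2.13, -1.91, -3.09 and -2.77 in ATH livers. ATH replicates 1 and 2 were above all STD livers, and ATH replicate 3 was below them all. The log2 difference was 0.23 (SE 0.26, 95% interval -0.37 to 0.83, limma adjusted p = 0.601), and it ranged from 0.039 without ATH replicate 2 to 0.43 without ATH replicate 3. ATH replicates 3 and 4, the livers with the highest *Alox5ap*, thus had the lowest *Ltc4s* of the ATH diet.

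A difference between probes of the same array does not move when 1 constant per array is subtracted, though it does with quantile normalization, so the change of *Alox5ap* was also set against that of its partners, a comparison chosen after their values were seen. The gap between *Alox5ap* and *Alox5* (A_52_P214126) was wider by 1.67 on the log2 scale on the ATH diet, in all 4 ATH livers against all STD livers (exact permutation test, two-sided, p = 0.0286, the smallest that 4 against 4 allows, adjusted p = 0.0714 over 5 comparisons). Against *Lta4h* it was wider by 2.0, again without overlap (exact permutation p = 0.0286, adjusted p = 0.0714). Against *Ltc4s* the change was 1.58 (exact permutation p = 0.0571, adjusted p = 0.0714), and the lowest ATH liver overlapped the STD livers. Against *Alox5* probes A_52_P214134 and A_51_P247249 it was 1.78 (exact permutation p = 0.0571, adjusted p = 0.0714) and 0.70 (exact permutation p = 0.457). None of the 5 passed 5% after adjustment, and 3 of them at the smallest p would have been needed for that. The permutations did not keep same-numbered arrays paired, so this smallest p is that of unpaired arrays.

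**Figure D2:**
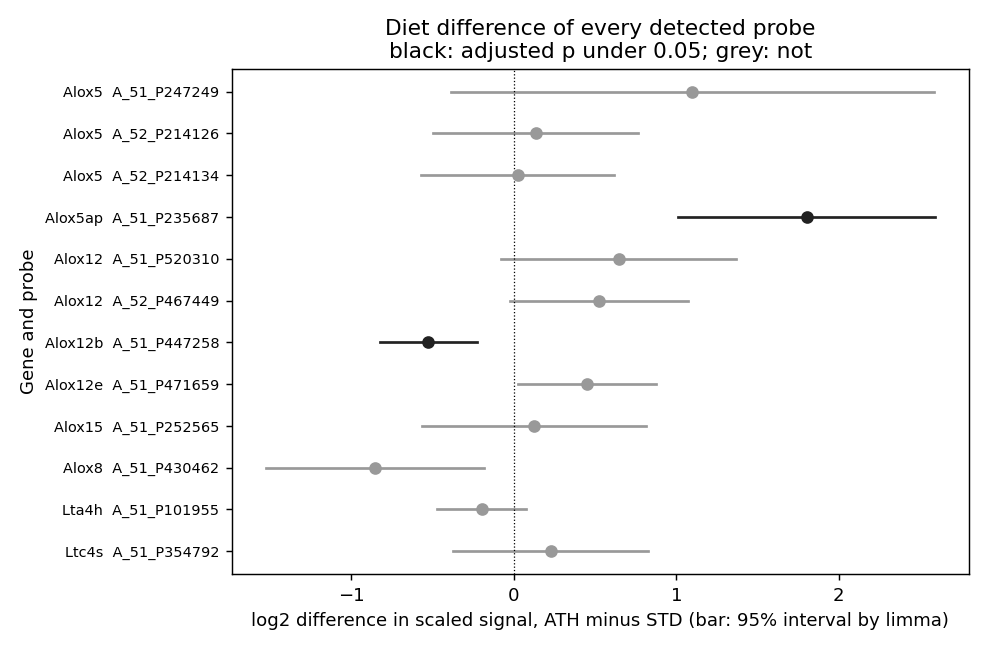
Log2 difference in scaled signal, ATH minus STD (horizontal axis), of each of the 12 detected member probes (vertical axis), with 95% intervals by limma; black marks an adjusted p under 0.05 and grey the rest. The intervals of *Alox5ap* (1.01 to 2.59) and *Alox12b* (-0.82 to -0.23) are the black ones, and the 3 *Alox5* probes range from 0.023 to 1.10.

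*Alox12b* encodes the 12R-lipoxygenase that builds the lipid barrier of the epidermis. On probe A_51_P447258 the scaled log2 signal was -1.63, -1.95, -1.90 and -1.76 in STD livers and -2.28, -2.18, -2.34 and -2.54 in ATH livers. All ATH livers lay below all STD livers, a pattern that 14.6% of all genes showed, while 5.3% were called lower. The difference was -0.53 (SE 0.13, 95% interval -0.82 to -0.23, limma adjusted p = 0.046).

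The unscaled signals of that *Alox12b* probe hardly differed. They were 154, 125, 124 and 132 in STD livers and 126, 122, 135 and 121 in ATH livers, and without scaling the log2 difference was -0.079 (limma adjusted p = 0.637). With spike-in scaling it was -0.22 (adjusted p = 0.288), and in the fit with a replicate block its adjusted p was 0.0728. Relative to the median of all detected probes, it was lower by 0.38, a value that subtracting 1 constant per array cannot change. The relative difference was -0.24 with normexp background correction and -0.47 with quantile normalization. Leaving out any array other than ATH replicate 2 also ended the call, with limma adjusted p from 0.0677 to 0.12. The second *Alox12b* probe, A_52_P316765, which lies 3333 bases further along the chromosome, was not well above background on any of the 8 arrays.

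*Alox8*, the mouse 8-lipoxygenase found beside *Alox12b*, had a probe at chr11:69266003-69266061 with scaled log2 values of -4.45, -4.95, -4.67 and -4.40 in STD livers and -4.93, -6.13, -4.93 and -5.90 in ATH livers. It was well above background in 4 STD livers and in 2 of the 4 ATH livers. ATH replicates 2 and 4 were far below the rest, and replicates 1 and 3 lay just above the lowest STD liver. The log2 difference of -0.86 (SE 0.30, 95% interval -1.53 to -0.18) did not pass (limma adjusted p = 0.102). It was called at -0.39 with normexp background correction (adjusted p = 0.029), a setting that called 20.6% of all probes.

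*Alox12*, the platelet-type 12-lipoxygenase, had 2 detected probes. On the brighter, A_52_P467449 at chr11:70323787-70323846, the scaled log2 signal was -3.52, -2.81, -2.44 and -2.53 in STD livers and -2.55, -2.34, -2.30 and -2.01 in ATH livers. STD replicate 1 was lowest by a wide margin, and ATH replicate 1 overlapped the STD livers. The log2 difference was 0.53 (SE 0.24, limma adjusted p = 0.191), and 0.29 without STD replicate 1.

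The other detected *Alox12* probe, A_51_P520310 at chr11:70324014-70324073, gave -4.12, -3.96, -3.89 and -4.11 in STD livers and -3.94, -2.30, -3.62 and -3.64 in ATH livers. ATH replicate 2, the liver with the lowest *Alox5ap* on this diet, stood far above the others. The log2 difference was 0.65 (SE 0.32, limma adjusted p = 0.218). Both probes passed without scaling (0.97 and 1.09, adjusted p = 0.0302 and 0.0285), where 23.7% of all probes were called. The last *Alox12* probe, A_52_P819886, was not well above background on any array.

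*Alox12e*, the epidermal 12-lipoxygenase, was measured at chr11:70397229-70397288. Its scaled log2 signal was -5.70, -5.36, -5.56 and -5.73 in STD livers and -5.50, -5.02, -4.70 and -5.32 in ATH livers. Only 1 of the 4 STD livers was well above background, against all 4 ATH livers, and ATH replicate 1 fell within the STD range. The difference was 0.45 on the log2 scale (SE 0.19, 95% interval 0.025 to 0.88, limma adjusted p = 0.156). The value of this dim probe moved with the processing. On the log2 scale it was 0.90 without scaling (adjusted p = 0.0214), 0.76 with spike-in scaling (adjusted p = 0.0438) and -0.13 with normexp background correction (adjusted p = 0.401).

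*Alox15* encodes the 12/15-lipoxygenase of mouse macrophages and eosinophils. Its exon-junction probe, at chr11:70427187-70427411 on the minus strand, gave scaled log2 values of -4.75, -4.53, -4.17 and -5.22 in STD livers and -4.26, -3.97, -4.72 and -5.22 in ATH livers. It was well above background in 3 STD livers and 4 ATH livers, and the ranges of the diets overlapped almost wholly. The log2 difference was 0.12 (SE 0.31, 95% interval -0.57 to 0.81, limma adjusted p = 0.818). ATH replicates 3 and 4, the livers with the highest *Alox5ap*, had the lowest *Alox15* of the ATH diet. Normexp background correction turned the difference to -0.19.

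Over the 9 members, 6 differences were above 0 and 3 below, from -0.86 to 1.80, with a median of 0.13 on the log2 scale (0.039 without ATH replicate 2 and 0.32 without ATH replicate 4). The median of all genes was -0.14, with 65.1% below 0. The split of the members moved with the scaling, to 7 above and 2 below on unscaled or spike-in scaled signals, where *Lta4h* changed sign. The other 8 members kept their direction under all 5 scalings, and normexp background correction turned *Alox12e* and *Alox15*.

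**Figure D3:**
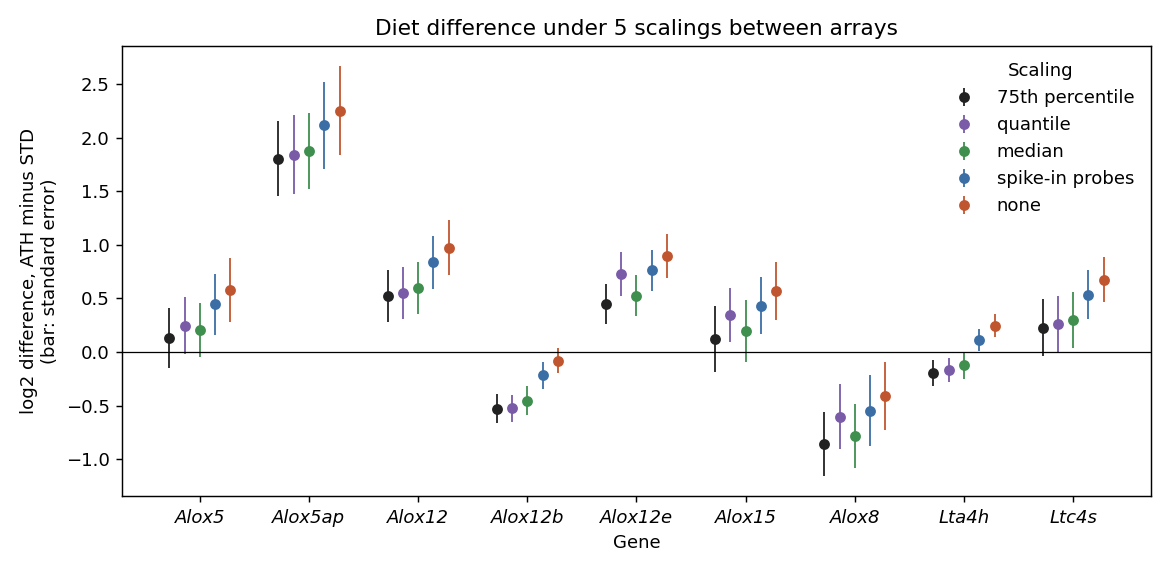
Log2 difference, ATH minus STD (vertical axis), of the 9 member genes under 5 scalings between arrays (colors), with standard errors. *Alox5ap* stays between 1.80 and 2.25, *Alox12b* moves from -0.53 with the 75th percentile to -0.079 without scaling, and *Lta4h* from -0.20 to 0.25.

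Bulk liver holds many cell types, so more or fewer cells of a type and more or less RNA per cell cannot be told apart. Beside *Alox5ap*, all 15 macrophage markers listed were detected, and their median log2 difference was 1.69. Of these markers, 9 were called higher and none lower, against 4.05% and 5.3% of all genes. Their summed scaled signal ran from 116 to 140 in STD livers and from 226 to 945 in ATH livers. Among the brightest, the lysozyme gene *Lyz2* was higher by 2.27 on the log2 scale (limma adjusted p = 0.0339), the scavenger protein gene *Cd5l* by 1.69 (adjusted p = 0.009) and cathepsin S (*Ctss*) by 2.22 (adjusted p = 0.0353).

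The difference of *Alox5ap* was exceeded by 7 of the 15 macrophage markers. Of the 15, 11 put the ATH livers in the same order as *Alox5ap* (replicate 2 lowest, then 1, 3 and 4), against 7.15% of all detected probes, and 14 were lowest in replicate 2, against 19.2%. Among markers of other cells, 5 of the 11 T and B cell markers had that order and 9 were lowest in replicate 2. For the 5 detected eosinophil markers these counts were 1 and 3. They were 1 and 4 for 10 neutrophil markers and 1 and 2 for 7 mast cell and basophil markers. None of the 10 platelet, 7 keratinocyte and 18 hepatocyte markers had that order, and 2, 0 and 0 were lowest in replicate 2. The part of the macrophage markers in the *Alox5ap* result was not tested.

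**Figure D4:**
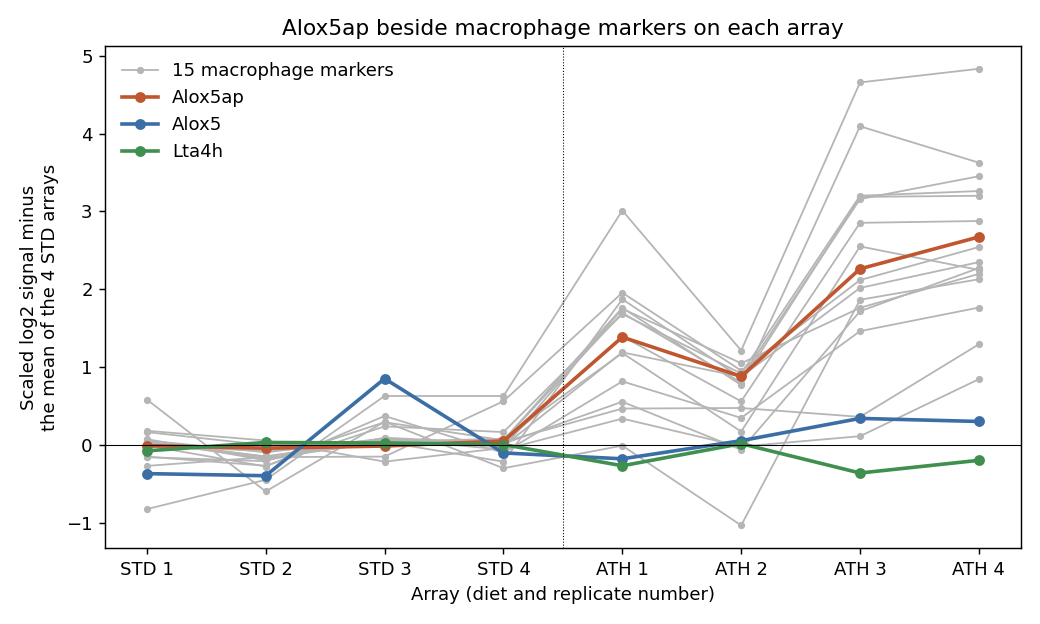
Scaled log2 signal minus the mean of the 4 STD arrays (vertical axis) on each array (horizontal axis, by diet and replicate number; lines join the values of 1 gene and imply no order of the mice) for *Alox5ap*, *Alox5*, *Lta4h* and 15 macrophage markers in grey. *Alox5ap* lies among the markers on the ATH arrays, lowest in replicate 2 and highest in replicate 4. On those arrays *Alox5* (brightest probe) and *Lta4h* lie nearer 0, and *Alox5* is highest in STD replicate 3.

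Markers of other cells known to use these enzymes were examined in the same way. Of 12 neutrophil markers, 10 were detected and none was called (limma; 4 had an unadjusted p under 0.05; median log2 difference 0.55). The summed scaled signal of the list was 1.96 to 4.02 in STD livers and 3.57 to 15.6 in ATH livers. Much of that sum came from *S100a9*, the brightest of the list, which differed by 1.73 and did not pass (limma adjusted p = 0.0787). *Elane*, a defining marker, was not detected. Of 8 eosinophil markers, 5 were detected and 3 were called higher, against 4.05% of all genes. *Ear1* and *Ear6* rose by 2.04 and 1.96 on the log2 scale, *Prg2* was not well above background in any STD liver and passed the filter through the ATH livers alone, and *Ccr3* gave -0.47 and did not pass. With normexp background correction, *Ear1* and *Ear6* stayed called (1.54 and 1.20), *Prg2* turned to -0.10 and *Ccr3* was called lower (-0.48). The median of the eosinophil list moved from 1.15 to -0.086 in that setting. The eosinophil list had a summed scaled signal of 0.50 to 0.59 in STD livers and 0.97 to 1.98 in ATH livers, while the eosinophil peroxidase *Epx* was not detected. Of 10 mast cell and basophil markers, 7 were detected with a median log2 difference of 0.14. *Cma1* was called higher by 0.64, but it turned to -0.085 with normexp background correction (limma adjusted p = 0.455). *Fcer1a* (-0.71), *Tpsb2* (-0.29) and *Ms4a2* (-0.25) were below 0 and did not pass, and *Cpa3* was not detected. The summed scaled signal of this list was 0.69 to 1.03 in STD livers and 1.15 to 1.97 in ATH livers, or 0.327 to 0.498 and 0.349 to 0.903 without *Hdc*, which did not pass.

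For the platelet and epidermal lipoxygenases the lists gave the following. All 10 platelet markers were detected, and *Clec1b* alone was called higher, by 1.44 on the log2 scale (limma adjusted p = 0.0178). Bulk signal does not show which cells carried *Clec1b*. Of the 10 platelet markers, 5 had an unadjusted p under 0.05 (limma; 30.6% of all genes did), and the list median was 0.57. Their summed scaled signal was 3.73 to 4.45 in STD livers and 7.28 to 13.9 in ATH livers. Without *Clec1b*, the gene with most of that signal, the sum was 1.01 to 1.47 in STD livers and 1.35 to 2.92 in ATH livers, and the other 9 markers did not pass, like *Alox12*. Of 8 keratinocyte markers, 7 were detected, *Sprr1a* was called higher and none was called lower beside *Alox12b*, with a median of -0.11. Their summed scaled signal was 2.30 to 3.08 in STD livers and 2.65 to 3.65 in ATH livers, and *Flg* was not detected. All 11 T and B cell markers on the array were detected and none was called (limma; 5 had an unadjusted p under 0.05; median log2 difference 0.54, summed scaled signal 1.86 to 2.41 in STD and 1.63 to 5.39 in ATH livers). The part of these cells in the results was not tested.

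Genes whose profile over the 8 arrays came closest to a called member were found by the root mean square difference of their centred scaled log2 values. Their differences between diets are close to that of the member by this choice. For *Alox5ap* these were *AI662270* (0.0646), *Parp8* (0.102) and *Marchf1* (0.105), with log2 differences between diets of 1.80, 1.81 and 1.77. For *Alox12b* they were *Pccb* (0.0482), *Rhox4e* (0.0591) and *Slc17a2* (0.0699), with log2 differences of -0.51, -0.57 and -0.52, of which *Slc17a2* did not pass (limma adjusted p = 0.0542).

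Of 31 further genes of the pathway, all were on the array and 27 were detected. Calls were made for 3 higher and 1 lower, against 9.35% of all genes, and the median log2 difference of the 27 was -0.11. The 23 others did not pass, and *Ggt1*, *Dpep3*, *Oxgr1* and *Gpr18* were not detected. When replicate numbers were fitted as a block, 1 of the 4 calls held, *Cotl1* (limma adjusted p = 0.0403).

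*Pla2g4a*, the cytosolic phospholipase A2 that releases arachidonic acid from membranes, had scaled log2 values of -3.23, -3.30, -3.01 and -3.21 in STD livers and -2.05, -2.54, -0.67 and -0.54 in ATH livers. The diets did not overlap, and ATH replicates 3 and 4 were highest, as for *Alox5ap*. It rose by 1.74 on the log2 scale (SE 0.42, limma adjusted p = 0.0433; 0.0533 with the replicate block), and its second probe gave 1.5 (adjusted p = 0.0633). *Lpcat3* and *Acsl4*, which put arachidonic acid into phospholipids and activate it, gave -0.24 and -0.15 and did not pass.

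*Abcc1* exports leukotriene C4 from cells. It had scaled log2 values of -2.34, -2.45, -2.44 and -2.69 in STD livers and -0.94, -1.78, -0.0091 and 0.057 in ATH livers, again without overlap and lowest in ATH replicate 2. It rose by 1.81 on the log2 scale (SE 0.38, limma adjusted p = 0.0298; 0.0533 with the replicate block), and its other 2 probes were called at 1.59 and 1.47. *Abcc2* and *Ggt5*, in canalicular export and in leukotriene C4 cleavage, gave -0.32 and 0.38 and did not pass.

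*Cotl1* encodes coactosin-like protein, a binding partner of 5-lipoxygenase. Its scaled log2 values were 3.21, 3.98, 3.19 and 3.21 in STD livers and 5.14, 4.74, 5.08 and 5.22 in ATH livers. STD replicate 2 stood apart from the other STD livers but below every ATH liver. The rise was 1.65 on the log2 scale (SE 0.21, limma adjusted p = 0.00699), the only call here at a false discovery rate of 1%, which 0.64% of all genes passed, and its second probe gave 1.55 (adjusted p = 0.00905). The genes *Mapk14* and *Mapkapk2*, of a kinase cascade that phosphorylates 5-lipoxygenase, gave -0.11 and 0.083 and did not pass.

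*Cmklr1*, a receptor for chemerin and resolvin E1, had scaled log2 values of -1.13, -1.23, -0.96 and -0.74 in STD livers and -1.52, -1.57, -1.90 and -1.76 in ATH livers. All ATH livers were below all STD livers. It fell by 0.67 on the log2 scale (SE 0.15, limma adjusted p = 0.0371; 0.0703 with the replicate block), and the call was lost with median scaling (-0.59, adjusted p = 0.0546), on unscaled signals (-0.22) and with spike-in scaling (-0.36). The leukotriene B4 receptor *Ltb4r1* gave -0.017 on the log2 scale and did not pass (limma adjusted p = 0.95).

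*Fpr2*, a receptor for lipoxin A4 and formyl peptides, had scaled log2 values of -3.09, -3.07, -2.99 and -3.32 in STD livers and -1.09, -3.15, 1.48 and 1.90 in ATH livers. ATH replicate 2 lay within the STD livers and the other 3 ATH livers above them, so the difference of 2.91 on the log2 scale (SE 0.97) did not pass (limma adjusted p = 0.0937). None of the enzymes that reduce lipid hydroperoxides or break down leukotriene B4 passed either. The glutathione peroxidases *Gpx1* and *Gpx4* gave -0.27 and -0.35, and the leukotriene B4 hydroxylases *Cyp4f14* and *Cyp4f18* gave -0.34 and -0.26. *Ptgr1*, which oxidizes leukotriene B4, went the other way at 0.54 (limma adjusted p = 0.148), and it was called on unscaled signals (0.99, adjusted p = 0.0172) and with spike-in scaling (0.85, adjusted p = 0.0408).

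Among glutathione transferases of the microsomal family, some but not all of which can also make leukotriene C4, *Mgst1* gave -0.48 and *Mgst3* -0.34, and neither passed. *Mgst2*, named after its values were seen, differed by 1.25 on the log2 scale (SE 0.39, limma adjusted p = 0.0774). *Aloxe3*, the epidermal partner of *Alox12b*, gave -0.17 (limma adjusted p = 0.604).

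**Figure D5:**
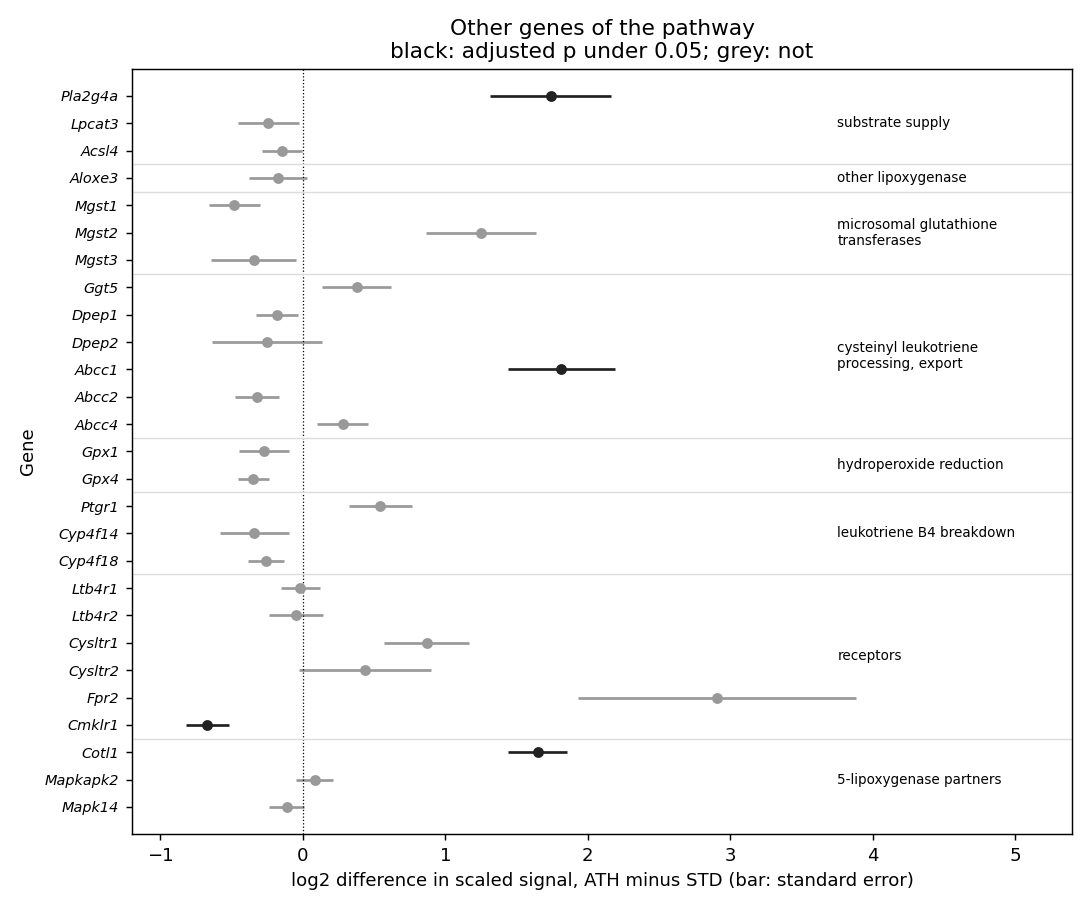
Log2 difference in scaled signal, ATH minus STD (horizontal axis), of the 27 other pathway genes that were detected, grouped by role, with standard errors; black marks an adjusted p under 0.05. The black points are *Pla2g4a* (1.74), *Abcc1* (1.81) and *Cotl1* (1.65) on the right and *Cmklr1* (-0.67) on the left, and *Fpr2* (2.91) has the longest bar.

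The pathway calls shared the limits of the members. Leaving out an array gave 1 to 7 calls among the 27 genes, with 1 call when any STD replicate or ATH replicate 3 or 4 was left out, and 7 calls without ATH replicate 2.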

How the data were processed

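The authors labeled liver RNA with Cy3, hybridized it to Agilent whole mouse genome arrays and ran Feature Extraction 9.5, and deposited spot intensity values, background-subtracted and not scaled between arrays, beside a table of log2 values whose scaling is not stated in the sources used here. The deposited log2 values equalled the log2 processed signal plus an array and a probe constant for 100% of 27153 probes, within 0.001. Outlier spots were left out, spots of a probe were averaged, and log2 values were taken minus the array's 75th percentile. Detected meant well above background, positive and significant on at least 3 of 4 arrays of a diet. Diets were tested with limma 3.58.1 in R 4.3.3 over 31056 detected probes (Benjamini-Hochberg, 5%), and a gene was taken by its brightest probe. Genes other than members were named through RefSeq accessions for 22951 probes, symbols for 6659 and synonyms for 3109. Pathway genes named are those called and at most 2 of the brightest others per role, and of macrophage markers the 3 brightest. *Mgst2*, *Ptgr1* and the other markers are named outside this rule, after their values were seen.

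Members and lists were chosen with earlier results of these data known. Same-numbered arrays share a slide position, and their deviations correlated at 0.10, 0.23, 0.18 and 0.18, so the numbers were taken to pair arrays. The main fit and the exact permutation tests left this pairing out, and only the fit with the replicate block used it. On simulated data for this comparison with 31042 probes, with a log2 change of 2 given to 200 of them, limma recovered 88.5% at 5% (190 calls, 13 false) and the methods' t-test 62%. That change was larger than the difference of any member, and the simulated spread was the same in both diets. These shares therefore do not give the power for the members. Python 3.11.15 with numpy 2.4.6, scipy 1.17.1, pandas 2.3.3 and matplotlib 3.10.9 gave exact tests and plots. Other genotypes and assays of the study were not analysed here.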

Additional observations from a re-analysis of the deposited data

Results flagged for a closer look

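Of 32 groups of 4 livers examined, over the member and named pathway probes, 1 held a liver far from the other 3, and chance gives this in about 1 in 20 groups. It was *Cotl1* (A_51_P494675) in STD replicate 2, at 3.98 scaled log2 against 3.21 in the nearest STD liver, a gap of 0.968 of the group's range.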

How the results depend on the processing

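Of the 9 members, limma called 2. The count was 1 with median scaling, 4 without scaling (*Alox5ap*, *Alox12*, *Alox12e*, *Ltc4s*), 1 with no filter on dim probes, 1 with the replicate block, 0 by the methods' t-test (2 at an unadjusted p under 0.05), 0 at a false discovery rate of 1% and 0 to 2 with an array left out; the methods' t-test called 22 of all probes. The pathway count of 4 became 8 without scaling, 1 with no filter, 1 with the replicate block, 0 by the methods' t-test (6 at an unadjusted p under 0.05), 1 at 1% and 1 to 7 with an array left out. The members' median of 0.13 became -0.13 with normexp correction, 0.58 without scaling and 0.44 with spike-in scaling. *Alox5ap* kept 1.80 but not its call by the methods' t-test (adjusted p = 0.167), kept it with the replicate block (adjusted p = 0.046), and ranged from 1.51 to 2.11 with an array left out. *Alox12b* lost its call with median scaling (-0.45), without scaling (-0.079), with spike-in scaling (-0.22), and at -0.53 with no filter, by the methods' t-test and with the replicate block, and ranged from -0.58 to -0.46 with an array left out. *Lta4h* turned to 0.25 without scaling and 0.11 with spike-in scaling, *Alox12e* to -0.13 and *Alox15* to -0.19 with normexp correction, and *Alox15* to -0.061 without STD replicate 4 and -0.068 without ATH replicate 2 (0.35 without ATH replicate 4). The cause was not tested. Requiring detection on all 8 arrays gave no value for *Alox12e*, *Alox15* and *Alox8*. Signal near background limits these 3 and *Alox5*. Over all probes, the limma count of 2483 was 7364 without scaling, 6394 with normexp correction, 1322 with the replicate block and 394 to 3979 with an array left out.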
